A study of Homo sapiens with 8 samples.

Results

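The clustered histone genes encode the linker histone H1 and the core histones H2A, H2B, H3 and H4, and were measured here in A549 cells, a line derived from a human lung carcinoma. Members were the probe sets that the platform annotation ties to genes whose symbol begins H1-, H2AC, H2BC, H3C or H4C and a digit, or whose older symbol begins HIST1H to HIST4H. Of 54613 probe sets that were not array controls, 78 met this rule. They name 69 of the table's 21357 gene symbols. Of the 78 probe sets, 58 were tied to 1 gene and 20 to several, all of them histones. The set held 3 pseudogenes and 7 probe sets whose genes carry no cluster name (H1-7, H1-8, H1-9P, H1-10 and H2BC12L). By family, 13 probe sets were of H1, 16 of H2A, 20 of H2B, 11 of H3 and 16 of H4, and 2 were shared by an H2A gene and an H3 gene. H1-10-AS1, an antisense RNA, was left out as no histone.

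Total RNA was hybridized to 8 Affymetrix arrays in 4 groups of 2. The groups were A549 cells with siRNA against SRC-1 and medium with glucose, cells with control siRNA and medium with glucose, cells with siRNA against SRC-1 and medium without glucose, and cells with control siRNA and medium without glucose. SRC-1 is the coactivator of nuclear receptors encoded by NCOA1. After transfection all cells, the controls included, spent 36 h in 10% dialyzed serum, which is depleted of small molecules, before the change to DMEM with or without glucose. How long that last step took is not known here. A group's arrays are biological replicates of 1 cell line per the labels, which do not speak of separate cultures, so a p-value measures the spread among arrays, which may be technical.

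Most clustered histone genes are transcribed in S phase, when new DNA has to be packed into nucleosomes of H2A, H2B, H3 and H4, with H1 binding the DNA between them. Cyclin E and its kinase activate NPAT at the clusters, and the transcription factor that reads the octamer sequence acts on H2B promoters. Their transcripts usually end in a stem-loop bound by SLBP instead of a poly(A) tail. Several of the genes, H2BC12, H2BC5 and H2AC6 among them, are also known to give polyadenylated transcripts. The labels speak of biotinylated cRNA made in the standard Affymetrix way and do not say how the reaction was primed. Whether the arrays read the stem-loop transcripts and the polyadenylated ones alike was not tested, so the signals are not taken as total histone mRNA.

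The promoters of 5 members are shown because their genes moved in opposite directions with glucose while some of them share upstream DNA. Each is the stretch of 250 bases upstream of the start in RefSeq (build GRCh38.p14), read in the direction of the gene. Capitals mark the octamer (ATTTGCAT), the CCAAT box (CCAAT) and the TATA box (TATAAA), each searched on both strands. Adjoining capitals can be overlapping matches, as where the TATA letters of both strands run into each other in H2BC12. H2BC4 lies on the minus strand at chr6:26123927-26124176, H2AC6 on the plus strand at chr6:26123922-26124171, H2BC12 on the minus strand at chr6:27146859-27147108, H2AC25 on the minus strand at chr1:228457874-228458123 and H4C8 on the minus strand at chr6:26285535-26285784.
H2BC4: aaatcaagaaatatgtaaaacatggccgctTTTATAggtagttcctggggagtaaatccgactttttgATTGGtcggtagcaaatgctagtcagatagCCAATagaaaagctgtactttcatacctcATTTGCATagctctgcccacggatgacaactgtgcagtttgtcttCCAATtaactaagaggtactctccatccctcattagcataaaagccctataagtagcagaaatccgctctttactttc
H2AC6: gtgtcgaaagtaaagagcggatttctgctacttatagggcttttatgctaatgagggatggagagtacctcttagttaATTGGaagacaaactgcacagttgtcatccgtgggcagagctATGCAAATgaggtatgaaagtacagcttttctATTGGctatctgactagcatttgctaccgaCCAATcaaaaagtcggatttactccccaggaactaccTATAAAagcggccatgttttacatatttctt
H2BC12: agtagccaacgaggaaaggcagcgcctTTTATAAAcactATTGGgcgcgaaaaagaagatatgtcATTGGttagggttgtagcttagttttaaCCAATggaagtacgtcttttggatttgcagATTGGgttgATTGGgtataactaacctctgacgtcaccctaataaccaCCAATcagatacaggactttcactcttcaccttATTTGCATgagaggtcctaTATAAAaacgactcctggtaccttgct
H2AC25: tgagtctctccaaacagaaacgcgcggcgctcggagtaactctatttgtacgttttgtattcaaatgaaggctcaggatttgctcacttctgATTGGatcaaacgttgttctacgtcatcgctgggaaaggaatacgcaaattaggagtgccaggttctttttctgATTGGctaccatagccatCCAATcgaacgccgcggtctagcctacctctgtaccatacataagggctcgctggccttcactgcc
H4C8: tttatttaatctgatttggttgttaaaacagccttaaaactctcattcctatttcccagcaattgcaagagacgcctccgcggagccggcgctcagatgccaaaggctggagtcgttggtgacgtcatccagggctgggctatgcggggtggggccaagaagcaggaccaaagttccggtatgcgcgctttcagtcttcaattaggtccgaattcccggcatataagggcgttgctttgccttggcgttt

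The windows of H2BC4 and H2AC6 share 245 bases, read from opposite strands, since these genes stand head to head. RefSeq gave a promoter for 60 of the 69 member genes. The octamer was found in the windows of 13 of 16 H2B genes, 8 of 13 H2A genes, 1 of 9 H3 genes, 0 of 9 H1 genes and 0 of 13 H4 genes, against 1.66% of 27305 promoters of all genes. That H3 gene was H3C4, whose window shares 222 bases with that of H2BC7, as the H2AC7 window does. The octamer windows of H2AC6, H2AC7, H2AC8, H2AC11, H2AC14 and H2AC17 each overlap an H2B window that holds it too. The same DNA can thus count for both families. CCAAT was found in all 16 H2B, all 13 H2A, all 9 H3, 8 of 9 H1 and 3 of 13 H4 windows, against 33.0% of all promoters. TATAAA was found in 38 of the 60 member windows, against 11.1% of all promoters. The H2AC25 window held CCAAT only, and the H4C8 window held none of the 3 motifs. A match is a run of letters and not a binding site.

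The arrays were close to each other. Their medians lay between 4.972 and 5.004 on the log2 scale, and the arrays of a group correlated at 0.997 to 0.998 over all probe sets. The knockdown was visible in all 4 probe sets of NCOA1. The brightest of them read 5.47 and 5.18 with SRC-1 siRNA against 8.60 and 8.42 with control siRNA, all with glucose, and 5.22 and 5.09 against 8.34 and 8.24 without glucose. Keratins KRT8 and KRT18 and the aldehyde dehydrogenase ALDH1A1, genes of this line, stood at 13.0, 14.3 and 14.1. KRT19, EPCAM and AKR1C2 gave 10.60, 8.09 and 14.40. The blood cell marker PTPRC stood at 3.05, the endothelial marker CDH5 at 3.52 and the fibroblast marker COL3A1 at 4.36. These were the lowest of their kinds among the genes looked at, and the others were less clear. Blood genes HBB and CD3E gave 6.02 and 5.50, endothelial genes PECAM1 and VWF 5.80 and 5.47, and fibroblast gene DCN 5.02. Lung genes NKX2-1 and SFTPB, at 5.90 and 5.97, were no higher than HBB. Surfactant gene SFTPC gave 7.64 and the fibroblast gene COL1A1 7.88, from probe sets that can cross-hybridize. The same limit holds for those of KRT8, KRT18, EPCAM, AKR1C2, NKX2-1, SFTPB, HBB, VWF, COL3A1 and DCN. The difference between 3′ and 5′ probe sets of GAPDH, a sign of RNA integrity, was higher with glucose in each siRNA arm, without overlap. It was 0.154 and 0.139 with glucose against 0.126 and 0.131 without under SRC-1 siRNA, and 0.163 and 0.172 against 0.123 and 0.141 under control siRNA. The same measure of ACTB was 0.615 and 0.513 with glucose against 0.450 and 0.535 without under SRC-1 siRNA, which overlap, and 0.643 and 0.521 against 0.414 and 0.520 under control siRNA, which do not.

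Of the 78 member probe sets, 41 had a mean log2 signal above the filter of 4.80 and entered the tests, and 37 did not. The H2BC4 probe set 236193_at was the dimmest that passed, at a mean of 4.90, and an H1-6 probe set was the brightest that did not, at 4.69. By family the tests covered 5 H1, 12 H2A, 11 H2B, 4 H3 and 8 H4 probe sets and 1 shared by H2A and H3. The highest mean signals of the families were 12.75 for 205967_at, tied to 14 H4 genes, 11.54 for H2BC12, 9.65 for 214290_s_at, tied to H2AC18 and H2AC19, 8.70 for H1-10 and 6.72 for 206110_at, tied to 10 H3 genes. Signals of different probe sets are not amounts on a shared scale, so the families are not ranked by them.

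**Figure D1:**
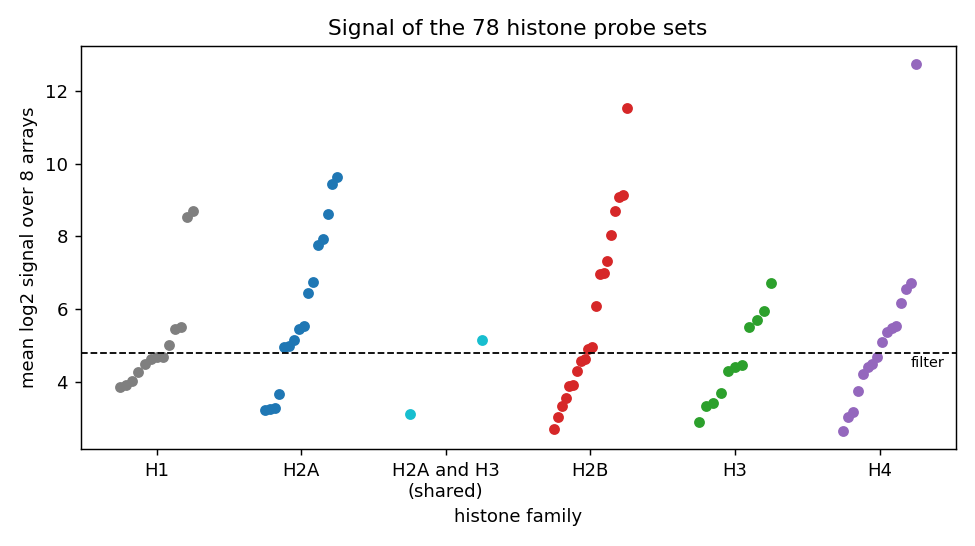
Mean log2 signal over the 8 arrays (y axis) of each of the 78 histone probe sets, in columns by family (x axis), 1 point a probe set in rising order within its family. The dashed line is the filter at log2 4.80; 41 points lie above it and 37 below.

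The first question was what glucose did to histone gene signals. With SRC-1 siRNA, 13 of the 41 tested members rose with glucose and 5 fell at an adjusted p below 0.05. With control siRNA, 10 rose and 6 fell. Among all 29019 probe sets tested, 21.3% rose and 18.5% fell with SRC-1 siRNA, and 20.7% rose and 19.9% fell with control siRNA, to be read beside the members' 31.7% and 12.2% with SRC-1 siRNA and 24.4% and 14.6% with control siRNA. The list was not tested as a whole. The 3′ to 5′ differences of GAPDH given above moved with glucose too, and their part in the glucose results was not tested. Probe sets prone to cross-hybridize made up most of the increases: without those whose suffix is _s_at or _x_at, 3 of 20 members rose and 4 fell with SRC-1 siRNA, and 2 rose and 3 fell with control siRNA. Of all 17905 probe sets that stay, 21.6% rose and 16.8% fell with SRC-1 siRNA, and 21.4% rose and 17.9% fell with control siRNA, so that the members' share of increases lay below the table's. The members' median log2 difference was 0.03 with SRC-1 siRNA and 0.04 with control siRNA, against -0.0033 and -0.0071 over all probe sets. Fewer cells in a phase of the cell cycle and less histone RNA per cell cannot be told apart in such bulk samples.

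The families differed in their counts. Of the 11 H2B probe sets, 9 rose and 0 fell in each siRNA arm. These 9 include H2BC4 236193_at, which passed the filter only through its arrays with glucose and so could only be called higher. It is also counted among the increases given above. Of the 12 H2A probe sets, 3 rose and 2 fell with SRC-1 siRNA, and 1 rose and 2 fell with control siRNA. None of the 4 H3 or 8 H4 probe sets rose, while 1 of H3 and 2 of H4 fell in each arm. Of the 5 H1 probe sets, 1 rose with SRC-1 siRNA and 0 with control siRNA, and none fell. Of all probe sets tested, 21.3% rose and 18.5% fell with SRC-1 siRNA, and 20.7% rose and 19.9% fell with control siRNA. With so few probe sets a family, the decreases in H2A, H3 and H4 are not set apart from these shares. These are counts of probe sets, several of which share genes or sequence. The arms, which have no array in common, called 10 members higher in both and 5 lower in both, with 0 opposite calls. Of all 29019 probe sets, 17.7% were called higher in both arms and 15.7% lower in both. Of the 41 members 35, or 85.4%, had the same sign in both arms, against 82.6% of all probe sets. The Pearson correlation between the arms' differences was 0.939 across the members and 0.945 across all probe sets.

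**Figure D2:**
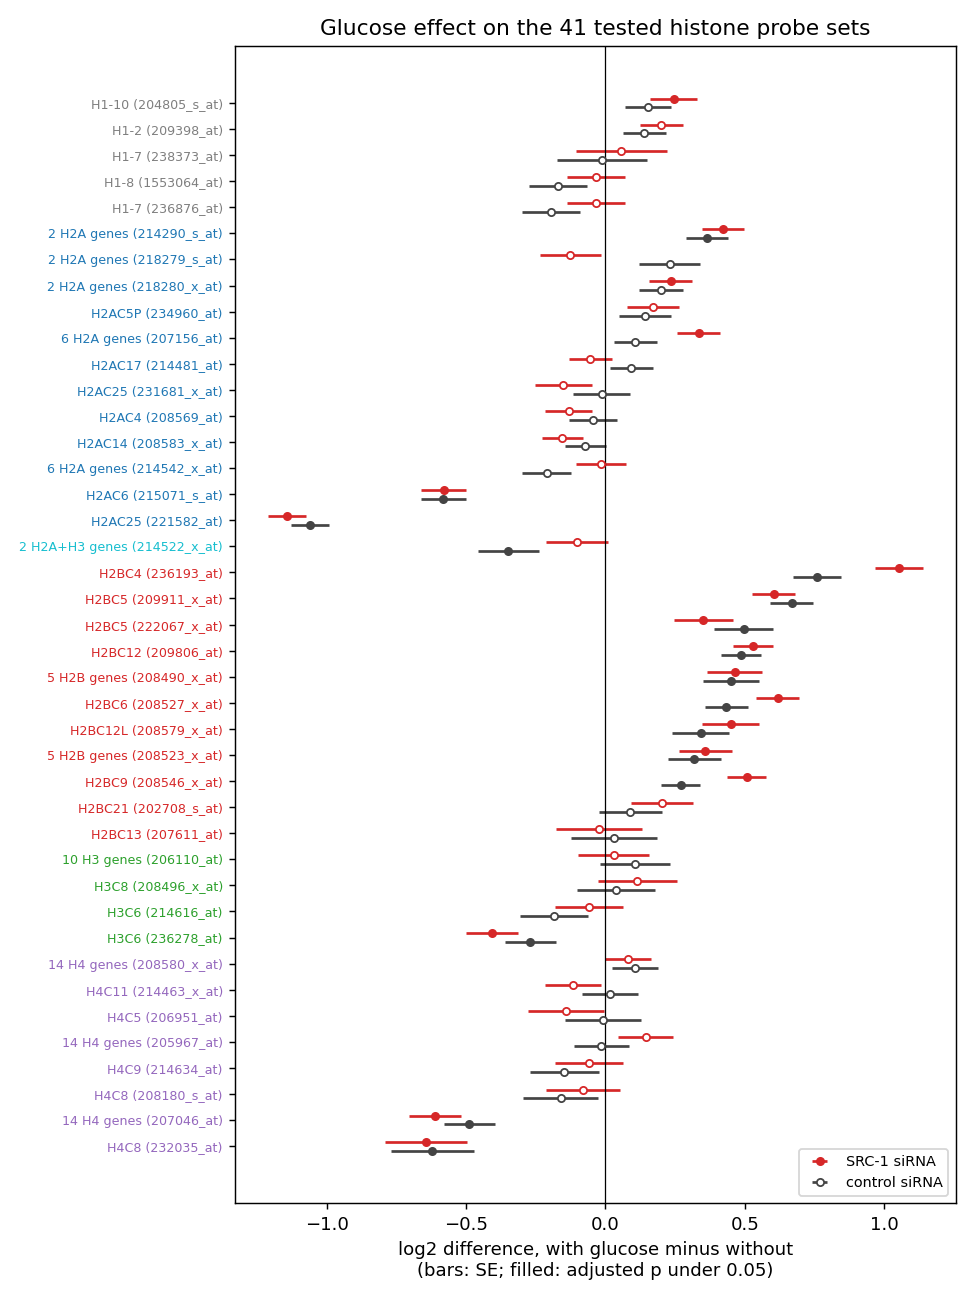
Log2 difference in signal, medium with glucose minus medium without (x axis), for each of the 41 tested histone probe sets (y axis, label colour by family), with SRC-1 siRNA (red) above control siRNA (dark grey). Points are differences of group means, bars are SE, and filled points passed an adjusted p of 0.05. In each arm 9 of 11 H2B probe sets are filled to the right of 0. They include H2BC4 236193_at, which passed the filter only through its arrays with glucose.

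H2BC12 had the highest signal among the H2B probe sets. With SRC-1 siRNA its log2 signal was 11.90 and 11.90 with glucose, against 11.38 and 11.38 without. With control siRNA it was 11.68 and 11.70 with glucose, against 11.14 and 11.26 without. All 4 arrays with glucose lay above all 4 without. The log2 difference was 0.53 with SRC-1 siRNA (SE 0.07, limma adjusted p = 0.00058) and 0.48 with control siRNA (SE 0.07, adjusted p = 0.0009).

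H2BC4, a core histone gene of the chromosome 6 cluster, had the highest log2 differences among the tested members, in a probe set near the filter. Its probe set 236193_at read 5.58 and 5.47 with SRC-1 siRNA and glucose, against 4.55 and 4.39 with SRC-1 siRNA without glucose. With control siRNA it read 5.20 and 5.18 with glucose, against 4.37 and 4.49 without. The arrays with and without glucose did not overlap. The log2 difference was 1.05 with SRC-1 siRNA (SE 0.09, limma adjusted p = 4.39e-05), a fold of 2.07, and 0.76 with control siRNA (SE 0.09, adjusted p = 0.000224), a fold of 1.69. Its signals without glucose lay below the filter of 4.80, so it entered the tests through the arrays with glucose and had to differ in that direction. In a fit of all probe sets with no filter the same differences had adjusted p values of 0.000108 with SRC-1 siRNA and 0.000601 with control siRNA.

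H2BC5, its neighbour among the H2B genes of chromosome 6, was read by a pair of probe sets that both rose. The first, 209911_x_at, gave 9.48 and 9.47 with glucose against 8.91 and 8.83 without under SRC-1 siRNA. Under control siRNA it gave 9.41 and 9.33 with glucose against 8.76 and 8.63 without. The groups with and without glucose stood apart in each arm, with log2 differences of 0.60 and 0.67 for SRC-1 and control siRNA (limma adjusted p = 0.000447 and 0.000261). The second, 222067_x_at, rose by 0.35 and 0.50 in the same order. Its call with SRC-1 siRNA was lost when SRC-1 siRNA without glucose replicate 2 was left out, with a difference of 0.22 and an adjusted p of 0.183. Leaving out 1 other array and 2 other settings also ended it, at adjusted p values from 0.0515.

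H2BC6 rose by 0.62 on the log2 scale with SRC-1 siRNA and by 0.43 with control siRNA (limma adjusted p = 0.000397 and 0.00239). Its signal was 8.38 and 8.39 with SRC-1 siRNA and glucose, and 7.82 and 7.71 with SRC-1 siRNA without glucose. With control siRNA it was 8.15 and 8.27 with glucose and 7.74 and 7.81 without. H2BC9 rose by 0.51 and 0.27 (adjusted p = 0.000691 and 0.0154). With control siRNA it averaged 7.04 ± 0.04 with glucose and 6.77 ± 0.01 without (SD, n = 2), yet leaving out control siRNA with glucose replicate 2 moved that adjusted p to 0.0743, and either control siRNA array without glucose, left out, moved it to 0.0595 or 0.0715. The fit with no filter gave 0.0516.

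The probe set 208490_x_at, tied to 5 H2B genes and designed on H2BC7, rose by 0.46 with SRC-1 siRNA and by 0.45 with control siRNA (0.37 and an adjusted p of 0.0566 without control siRNA no-glucose replicate 1). The probe set 208523_x_at, tied to the same 5 genes and designed on H2BC10, rose by 0.36 and 0.32. H2BC12L, which lies outside the named clusters, rose by 0.45 and 0.34. For these last probe sets the call with control siRNA was lost without control siRNA no-glucose replicate 1, at differences of 0.19 and 0.29 and adjusted p values of 0.175 and 0.139. In all, the control call of 208523_x_at was lost on leaving out 3 of the 8 arrays and under 2 other settings (adjusted p from 0.0512 to 0.175), and that of H2BC12L on leaving out 3 arrays and under 1 other setting (0.0586 to 0.148). With SRC-1 siRNA both calls were lost without SRC-1 siRNA no-glucose replicate 2 (adjusted p = 0.102 and 0.0601), and that of 208523_x_at also without SRC-1 siRNA with glucose replicate 1 (adjusted p = 0.0738). Of the 9 H2B probe sets that rose, 7 carry the suffix _s_at or _x_at, which marks probes that can bind related transcripts, so their calls are not independent of each other. The others were H2BC12 and H2BC4 236193_at.

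The calls left out H2BC21 and H2BC13. H2BC21 differed by 0.20 with SRC-1 siRNA (95% interval -0.05 to 0.46) and by 0.09 with control siRNA (-0.17 to 0.34). H2BC13 differed by -0.02 (-0.38 to 0.33) and 0.03 (-0.32 to 0.39). Both intervals of H2BC13 span the differences seen for H2BC9 in the control arm.

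**Figure D3:**
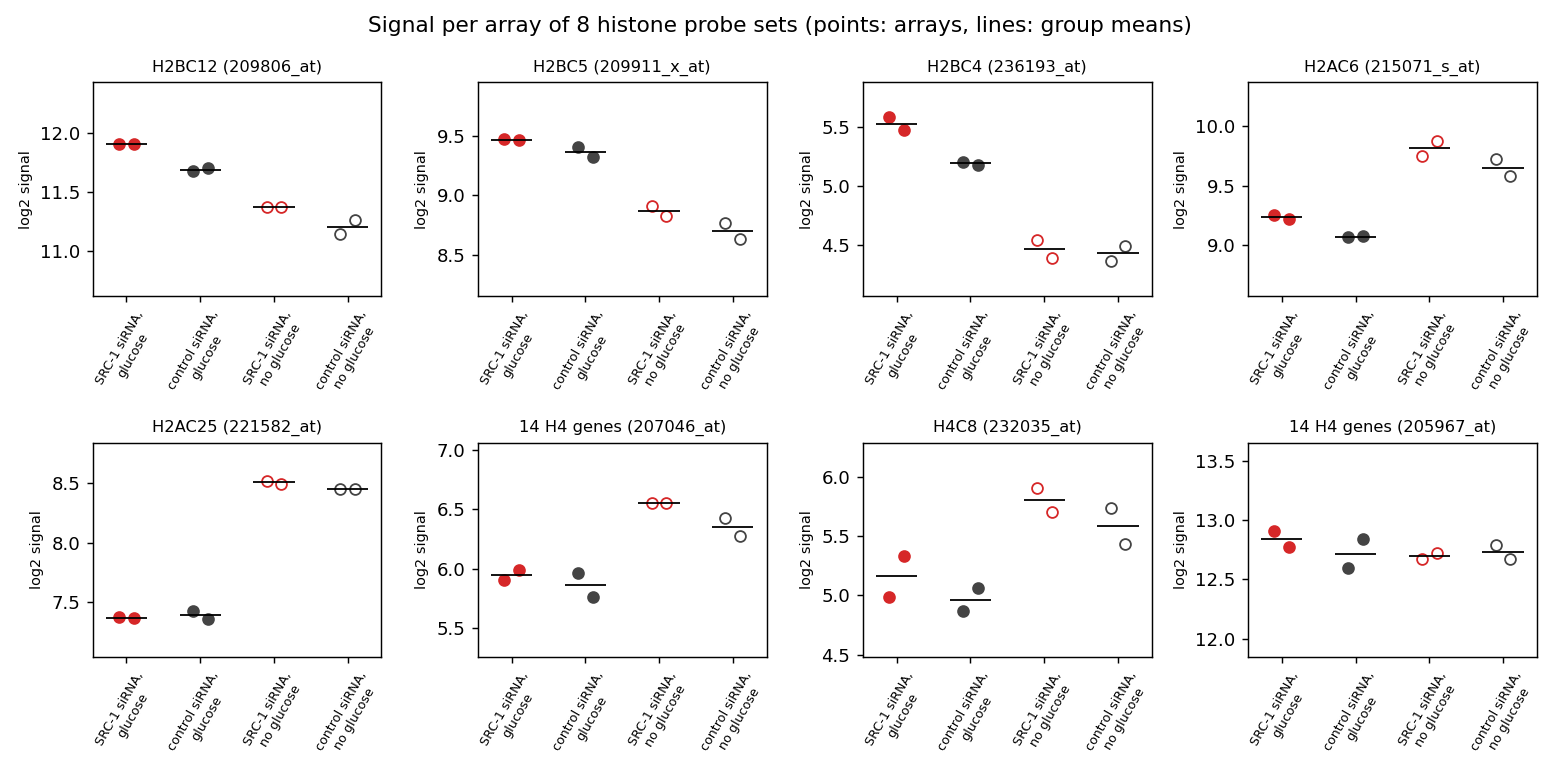
Log2 signal (y axis, each panel spanning 1.8 log2 units) on each of the 8 arrays, in 4 groups of 2 (x axis), for 8 histone probe sets; red is SRC-1 siRNA, dark grey control siRNA, filled with glucose and open without, and lines are group means. H2BC12, H2BC5 and H2BC4 are higher with glucose, H2AC6, H2AC25, 207046_at and H4C8 lower, and the groups of 205967_at overlap in the control siRNA arm and stand apart, without a call, in the SRC-1 siRNA arm.

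H2A genes moved both ways. H2AC25, a core histone gene on chromosome 1, had the largest decrease among the tested members. Its probe set 221582_at read 7.37 and 7.37 with SRC-1 siRNA and glucose, against 8.52 and 8.50 with SRC-1 siRNA without glucose. With control siRNA it read 7.43 and 7.36 with glucose, against 8.45 and 8.45 without. No array with glucose came near those without. It fell by 1.14 on the log2 scale with SRC-1 siRNA (SE 0.07, limma adjusted p = 9.57e-06) and by 1.06 with control siRNA (SE 0.07, adjusted p = 1.33e-05), folds of 2.21 and 2.09. A second probe set of H2AC25, 231681_x_at, lay near the filter, at a mean of 4.99. It differed by -0.15 (95% interval -0.39 to 0.08) and -0.01 (-0.25 to 0.22) and passed no test, so the decrease rests on 1 of 2 probe sets.

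H2AC6, the head-to-head neighbour of H2BC4, fell while H2BC4 rose, although 236193_at of H2BC4 was in the tests only through its arrays with glucose. H2AC6 was read only by 215071_s_at, whose suffix marks probes that can bind related transcripts. Its signal was 9.25 and 9.22 with glucose against 9.75 and 9.88 without under SRC-1 siRNA. Under control siRNA it was 9.07 and 9.08 with glucose against 9.73 and 9.58 without. The groups did not overlap, and the log2 difference was -0.58 in each arm (SE 0.08, limma adjusted p = 0.000687 with SRC-1 siRNA and 0.000669 with control siRNA). Of 9 head-to-head pairs of member genes, this was the only pair in which both genes had tested probe sets of their own. These pairs count H2BC7 both with H2AC7 and with H3C4, each sharing 222 bases with it, so they are not all distinct stretches of DNA.

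H2AC18 and H2AC19 share 3 probe sets, which gave different results. The brightest, 214290_s_at, read 9.93 and 9.94 with glucose against 9.58 and 9.44 without under SRC-1 siRNA, and 9.74 and 9.76 against 9.42 and 9.36 under control siRNA. It rose by 0.42 and 0.36 (limma adjusted p = 0.00234 and 0.0048). The next, 218280_x_at, differed by 0.23 with SRC-1 siRNA and 0.20 with control siRNA (adjusted p = 0.0441 and 0.0744). The first of these calls was lost on leaving out any 1 of the 8 arrays, with adjusted p up to 0.225, and the control arm passed under 2 other settings, at 0.038 and 0.0466. The dimmest, 218279_s_at, differed by -0.13 and 0.23 and passed neither test.

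The probe set 207156_at, tied to 6 H2A genes and designed on H2AC11, rose by 0.34 with SRC-1 siRNA (limma adjusted p = 0.00838) and differed by 0.11 with control siRNA (adjusted p = 0.31). The call was lost without SRC-1 siRNA no-glucose replicate 1 (adjusted p = 0.0519). A second probe set tied to these 6 genes, 214542_x_at, differed by -0.02 and -0.21 and passed neither test. The probe set shared by H2AC7 and H3C4, 214522_x_at, fell by 0.35 with control siRNA (adjusted p = 0.0339) and differed by -0.10 with SRC-1 siRNA. Leaving out control siRNA with glucose replicate 1 moved the value with control siRNA to -0.23 (adjusted p = 0.188), and 2 other arrays or no filter also ended that call. H2AC4, H2AC14, H2AC17 and the pseudogene H2AC5P were not called in either arm, with differences between -0.15 and 0.17.

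H3 genes gave 1 call in each arm. H3C6 fell by 0.41 with SRC-1 siRNA (limma adjusted p = 0.00785) and by 0.27 with control siRNA (adjusted p = 0.0459) in its probe set 236278_at. The signals were 5.47 and 5.55 with SRC-1 siRNA and glucose against 5.84 and 6.00 without glucose, and 5.54 and 5.57 with control siRNA and glucose against 5.92 and 5.73 without. The arrays with and without glucose did not overlap. With control siRNA the call was lost under 6 other settings and on leaving out any of 5 of the 8 arrays, with adjusted p values from 0.0509 to 0.264. The last was at -0.17, without control siRNA no-glucose replicate 1, and in the SRC-1 arm it was lost without SRC-1 siRNA no-glucose replicate 2 (adjusted p = 0.0599). The other H3C6 probe set, 214616_at, differed by -0.06 and -0.18 and was not called, although without control siRNA with glucose replicate 1 its difference in the control arm was -0.36 (adjusted p = 0.0416). Nor were H3C8, at 0.12 and 0.04, and 206110_at, at 0.03 and 0.11.

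Most H4 genes encode the same protein, and 3 tested probe sets were tied by the annotation to 14 of them at once. They gave different results. The probe set 207046_at, designed on H4C14, read 5.90 and 5.99 with glucose against 6.55 and 6.56 without under SRC-1 siRNA, and 5.96 and 5.76 against 6.43 and 6.27 under control siRNA. It fell by 0.61 and 0.49 (SE 0.09, limma adjusted p = 0.000999 and 0.00309), and its groups did not overlap. The probe set 205967_at, designed on H4C3, read 12.90 and 12.78 with glucose against 12.67 and 12.72 without under SRC-1 siRNA, and 12.59 and 12.84 against 12.79 and 12.67 under control siRNA. Its differences of 0.14 (95% interval -0.08 to 0.37) and -0.01 (-0.24 to 0.21) passed neither test. Its arrays with and without glucose stood apart under SRC-1 siRNA and overlapped under control siRNA. The third, 208580_x_at, designed on H4C11, differed by 0.08 and 0.11, also without a call.

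H4C8 fell in its probe set 232035_at, by 0.64 with SRC-1 siRNA and by 0.62 with control siRNA (SE 0.15, limma adjusted p = 0.00851 and 0.00995). Its arrays were the most scattered of the called members, at 4.99 and 5.33 with glucose against 5.90 and 5.70 without under SRC-1 siRNA, and 4.87 and 5.06 against 5.74 and 5.43 under control siRNA. Leaving out control siRNA no-glucose replicate 1 moved the control arm to -0.47 (adjusted p = 0.0756). Leaving out SRC-1 siRNA with glucose replicate 1 moved the SRC-1 arm to -0.47 (adjusted p = 0.0591). The other H4C8 probe set, 208180_s_at, differed by -0.08 and -0.16 and was not called. H4C5, H4C9 and H4C11 were not called either, with differences between -0.15 and 0.02.

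Linker histones gave 1 call. H1-10, a replication-independent variant that lies outside the clusters, had 8.75 and 8.88 with glucose against 8.64 and 8.50 without under SRC-1 siRNA. Under control siRNA it had 8.83 and 8.73 against 8.62 and 8.64. The difference of 0.24 with SRC-1 siRNA was called (limma adjusted p = 0.046), and that of 0.15 with control siRNA was not (adjusted p = 0.184). The call was lost on leaving out any 1 of the 8 arrays, with adjusted p up to 0.239. H1-2, a main linker histone of dividing cells, differed by 0.20 and 0.14 (adjusted p = 0.0666 and 0.182), and the value with SRC-1 siRNA passed under 4 alternatives, at adjusted p down to 0.0325. H1-7 and H1-8, germ cell variants, had differences between -0.19 and 0.06 and no call, and 236876_at, of H1-7, reached -0.34 (adjusted p = 0.032) in the control arm without control siRNA with glucose replicate 1.

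Of the 37 members below the filter, a fit of all probe sets without a filter called 1 higher and 1 lower with SRC-1 siRNA, and 1 higher and 0 lower with control siRNA. Among all 25594 probe sets below the filter, 1.98% were called higher and 2.23% lower with SRC-1 siRNA, and 2.73% higher and 2.16% lower with control siRNA. The one that rose was 214455_at, tied to 5 H2B genes and designed on H2BC4, at 0.63 and 0.83. The one that fell was H2AC15, at -0.40 with SRC-1 siRNA. Linker histone genes H1-1, H1-3, H1-4 and H1-5 were all below the filter.

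Along chromosome 6, some neighbouring members moved in opposite directions and others together. H2BC4, which rose in a probe set below the filter without glucose, stands next to H2AC6, which fell in an _s_at probe set. H2BC5, which rose, follows after H1-4, which was below the filter. H2BC6, the next member after H2BC5, rose as well, and both were read by _x_at probe sets. H3C6 fell in 236278_at, while its other probe set, 214616_at, was not called. H2BC6 to one side of it and H2BC9 to the other rose, with further member genes lying between. The octamer was found upstream of H2BC4 and of H2AC6, on their shared DNA, and upstream of H2BC12. It was not found in the windows of H2BC5, H2AC25, H4C8 and H3C6, of which the first rose and the others fell.

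**Figure D4:**
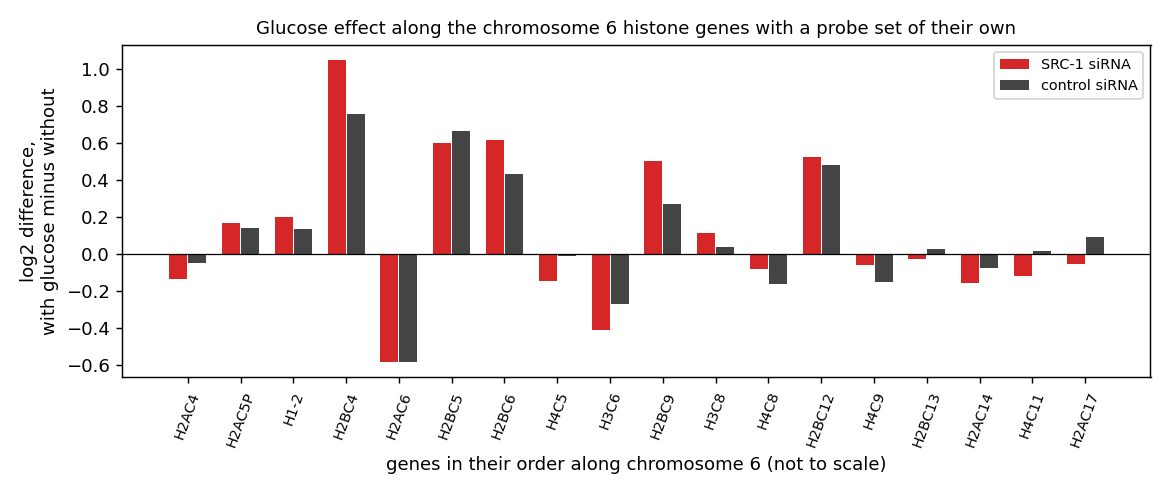
Log2 difference in signal, with glucose minus without (y axis), for the chromosome 6 histone genes that have a tested probe set of their own, in their order along the chromosome and not to scale (x axis), with SRC-1 siRNA (red) left of control siRNA (dark grey). Bars are differences of group means of 2 arrays, from the brightest probe set of a gene, so that H4C8 is shown by 208180_s_at. The bars of H2BC4 and its neighbour H2AC6 point in opposite directions, and those of the neighbours H2BC5 and H2BC6 both point up.

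The second question was whether SRC-1 siRNA changed histone gene signals. No member passed the limma test at an adjusted p below 0.05 with glucose, without glucose or averaged over media. Over the whole table, 0.0138% of probe sets passed with glucose, 0.0207% without and 0.0241% averaged, which are 4, 6 and 7 probe sets. The 4 probe sets of NCOA1, the target of the siRNA, passed in each of these comparisons. With glucose they were the only ones that passed. At an unadjusted p below 0.05, 6 members passed with glucose, 1 without and 10 averaged. Over all probe sets the share at that level was 5.75% with glucose, 3.42% without and 5.25% averaged.

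Small differences in the same direction were common among the members. The averaged log2 difference, SRC-1 siRNA minus control siRNA, was above 0 for 36 of 41 members, against 55.2% of all probe sets. Its median was 0.08, against 0.0083 over all probe sets. All 11 H2B and all 8 H4 members were above 0, as were 11 of 12 H2A, 3 of 4 H3 and 2 of 5 H1 members. In both media, 23 members had a difference above 0 and 3 below 0, against 29.1% of all probe sets above 0 in both. Probe sets that share genes or sequence count more than once here, and no test was made of the list.

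The averaged difference with the smallest p was that of H2BC12, at 0.195 (SE 0.051, unadjusted p = 0.00439, limma adjusted p = 0.843). The arrays of H2BC12 given above show SRC-1 siRNA above control siRNA in each medium with no overlap. H2BC9 differed by 0.182 (SE 0.050), H2BC4 236193_at by 0.186 (SE 0.060) and 208490_x_at by 0.203 (SE 0.071). H2AC6, which fell with glucose, had a difference of 0.163 between siRNAs (SE 0.057). The others at an unadjusted p below 0.05 were H2BC21, H2BC5 209911_x_at, 207156_at, 214290_s_at and 218280_x_at, between 0.137 and 0.182. None of these 10 passed the adjustment over all probe sets.

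In 8 members both SRC-1 siRNA arrays lay above both control siRNA arrays in each medium. They were H2BC5 209911_x_at, H2BC9, H2BC12, H2AC6, 207156_at, 208490_x_at, 214290_s_at and 218280_x_at. This held for 3.54% of all probe sets tested. H2AC25, with the largest glucose effect downward, differed by 0.02 between siRNAs (95% interval -0.09 to 0.13). Among H4 members the smallest p was that of 207046_at, with 0.14 (SE 0.07), among H3 members that of 206110_at, with 0.14 (SE 0.09), and among H1 members that of H1-2, with 0.10 (SE 0.05).

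**Figure D5:**
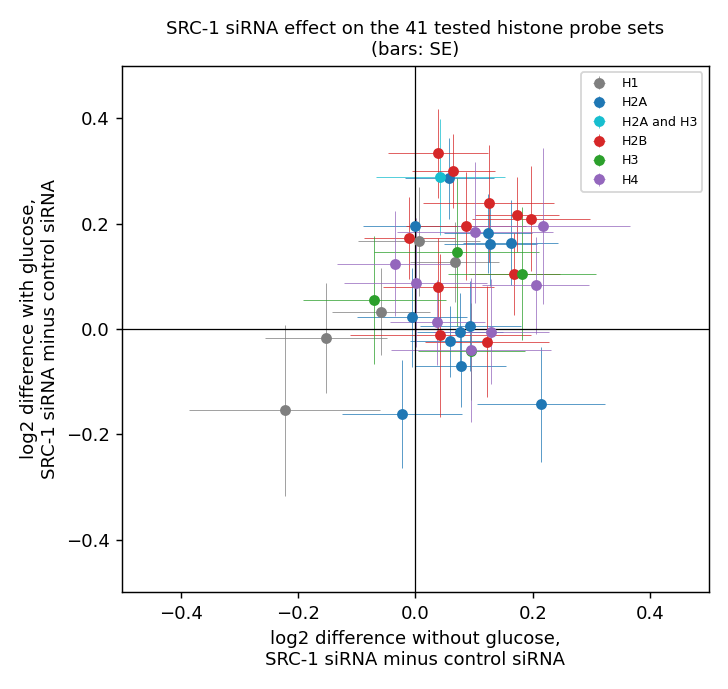
Log2 difference in signal, SRC-1 siRNA minus control siRNA, in medium with glucose (y axis) and without (x axis) for the 41 tested histone probe sets, coloured by family. Points are differences of group means of 2 arrays and bars are SE; 23 points lie in the upper right part of the plot, 3 in the lower left, and none passed an adjusted p of 0.05.

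The third question was whether the glucose effect differed between the siRNAs. No member passed the interaction test (limma, smallest adjusted p = 0.9996), nor did any probe set of the table (0%). At an unadjusted p below 0.05 there were 3 members, H2BC4 236193_at, H2BC9 and 218279_s_at, with differences between the glucose effects of 0.29 (SE 0.12), 0.24 (SE 0.10) and -0.36 (SE 0.16), against 1057 of all probe sets. The members called in a single arm are therefore not shown to differ between the arms.

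Genes that serve histone supply were set beside the members, each by its brightest probe set. Of all 13584 genes tested, 24.6% rose and 20% fell with glucose under SRC-1 siRNA, and 23.6% rose and 21.6% fell under control siRNA. Of 27 tested genes for histone mRNA transcription and processing, 16 rose and 3 fell with SRC-1 siRNA (median 0.32), and 14 rose and 3 fell with control siRNA (median 0.23). CCNE2 and CCNE1, the E cyclins, rose by 2.17 and 1.21 with SRC-1 siRNA and by 2.31 and 0.99 with control siRNA. Their kinase CDK2 rose 2.82-fold with SRC-1 siRNA and 2.80-fold with control siRNA, and SLBP, which binds the histone stem-loop, rose 1.79-fold and 1.68-fold. ZNF473 and MIF4GD, which act in histone mRNA end processing and translation, and HINFP, a factor for H4 promoters, were the 3 that fell.

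Of 21 tested histone chaperone and import genes, 13 rose and 1 fell with SRC-1 siRNA, and 11 rose and 2 fell with control siRNA. ASF1B, a chaperone of H3 and H4, rose by 1.42 with SRC-1 siRNA and 1.34 with control siRNA. CHAF1A and CHAF1B, subunits of the assembly factor that follows the replication fork, rose by 1.25 and 0.69 with SRC-1 siRNA and by 1.40 and 0.81 with control siRNA. NASP, which holds H3 and H4 in reserve, rose by 1.05 and 0.95. The importin IPO4 fell in both arms, and NAP1L1 fell with control siRNA.

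Histones made outside the clusters also had more increases than decreases. Of 8 tested, 5 rose and 0 fell with SRC-1 siRNA, and 4 rose and 0 fell with control siRNA. H2AX, the variant phosphorylated at DNA breaks, read 11.15 and 11.06 with SRC-1 siRNA and glucose against 9.93 and 9.87 without, and 11.15 and 11.14 with control siRNA and glucose against 9.78 and 9.95 without. It rose by 1.21 and 1.28. H2AZ1 and H2AZ2, which encode the H2A.Z variant, and MACROH2A2 rose by 0.33 to 0.56 except H2AZ1 with control siRNA, at 0.29.

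Of 28 tested S phase and replication genes, 26 rose and 0 fell in each arm, with medians of 1.07 with SRC-1 siRNA and 1.00 with control siRNA. The replication helicase subunits MCM6, MCM7 and MCM3 rose by 2.08, 1.46 and 1.53 with SRC-1 siRNA and by 1.84, 1.47 and 1.38 with control siRNA. GINS2, part of the same helicase, rose by 1.53 and 1.42. The median difference over the 41 clustered histone probe sets on the same arrays was 0.03 and 0.04. With the brightest probe set per gene, as for these lists, it was -0.028 with SRC-1 siRNA and 0.036 with control siRNA, over 24 members. How far the arrays read stem-loop transcripts was not tested. No gene of these lists passed the test of SRC-1 siRNA in either medium or averaged, and the lists' medians lay between -0.04 and 0.07 in those comparisons.

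The mean profile of the tested members, each centred on its own mean, was 0.06 and 0.08 with SRC-1 siRNA and glucose, -0.04 and -0.01 with control siRNA and glucose, -0.0029 and 0.02 with SRC-1 siRNA without glucose, and -0.04 and -0.07 with control siRNA without glucose. The 5 genes with the highest Pearson correlation to it over the 8 arrays, of 13560 genes, were MORC4 (0.966), SLX4IP (0.949), NT5M (0.938), BZW2 (0.935) and RNF135 (0.924). These correlations are a description over arrays that fall into 4 groups, and the profile itself spans a small range because members that rose and members that fell cancel in it.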

How the data were processed

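The deposited table gives 1 signal per probe set on each of 8 Affymetrix arrays and was used as log2 values, which run from 1.98 to 14.7. Base 2 was judged from their range. The authors' background correction, probe summary and normalization are not stated in what was used here, and neither detection calls nor scanner files were used. Per the labels' protocols, RNA came from RNeasy columns and was labelled as biotinylated cRNA in the standard Affymetrix way.

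Groups came from the sample titles. Probe sets were named by GEO's platform annotation, which ties 41091 of 54613 to 1 gene and 1801 to several and does not list 11721. Probe sets with a mean below the 40th percentile of those with 1 gene (log2 4.80) were left out. The remaining 29019 entered 1 limma fit (limma 3.58.1, R 4.3.3) with a mean for each of the 4 groups, 4 residual and 4.36 prior degrees of freedom and a median SE of 0.0913. The number of arrays limits the precision. The 6 contrasts were tested two-sided with Benjamini-Hochberg adjustment over all probe sets tested, at 0.05; the fit was tested on simulated data. Gene lists were read from the brightest probe set of each of 13584 genes and described by counts. Promoter sequences are from RefSeq, GRCh38.p14.

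The members and lists were chosen with earlier results of these data known, and no list was tested as a set. Named with values were, by rule, the brightest member of each family, up to 4 members of each family with the smallest p in a comparison, their genes' other probe sets, up to 4 genes a list and 5 genes of similar profile; members given for a lost call or for an opposite result of a sister probe set, and list genes that fell, were added after their values were seen. Same-numbered arrays were checked for pairing: their deviations correlated at -0.07 to 0.12, so the numbers were not taken as pairs. Alternatives were another filter or none, centring on array medians, quantile normalization, array weights, a prior that follows the signal, a replicate block, fits of the groups compared only, the brightest probe set per gene, leaving out _s_at and _x_at probe sets, leaving out genes with no cluster name, and leaving out each array.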

Additional observations from a re-analysis of the deposited data

Results flagged for a closer look

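H2AC17 (214481_at) differed with glucose in opposite directions in the siRNA arms, with no overlap between the media in either arm. Its log2 difference, with glucose minus without, was -0.05 with SRC-1 siRNA and 0.09 with control siRNA. The difference between these effects was -0.148 (SE 0.109), and the limma interaction test did not pass (adjusted p = 0.9996). The share of all probe sets with such a pattern was not counted, so it is not taken as particular to this member.

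The probe set 218279_s_at, shared by H2AC18 and H2AC19, differed between siRNAs in opposite directions in the media, with no overlap in either. Its log2 difference, SRC-1 siRNA minus control siRNA, was -0.14 with glucose and 0.21 without. The difference between these effects was -0.357 (SE 0.155, unadjusted p = 0.0485), and the limma interaction test did not pass after adjustment (adjusted p = 0.9996). Its sister probe sets 214290_s_at and 218280_x_at had interaction differences of 0.06 and 0.03. The share of all probe sets with this pattern was not counted here either.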

How the results depend on the processing

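Without _s_at and _x_at probe sets 3 of 20 members were higher with glucose and 4 lower with SRC-1 siRNA, and 2 higher and 3 lower with control siRNA, so that lower calls outnumbered higher ones. Members higher numbered 8 and 6 of 24 with the brightest probe set per gene. Members lower numbered 3 with SRC-1 siRNA and 3 with control siRNA by the brightest probe set per gene and 2 and 2 of 21 with a filter at the 60th percentile. These settings test fewer probe sets. Leaving out 1 array gave 8 to 11 higher and 4 to 5 lower with SRC-1 siRNA, and 6 to 10 higher and 3 to 6 lower with control siRNA; the lowest were 8 without SRC-1 siRNA no-glucose replicate 2, and 6 and 3 without control siRNA no-glucose replicate 1. The replicate block gave 11 higher and 5 lower in each arm and 0 calls for SRC-1 siRNA, and called 218279_s_at with control siRNA (0.231, adjusted p = 0.037). No count of calls for SRC-1 siRNA or the interaction rose above 0 under any alternative run. Of 34 called member effects, 26 kept their call under every other setting that tested them and 19 when each array was left out in turn, and none changed direction. With 2 arrays a group and a median SE of 0.0913, small differences could not be called, and dim signals may compress a fold.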
